A study of Mus musculus with 6 samples.

Results

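The 7 genes of the meiotic crossover pathway described here were chosen by name: Msh4, Msh5, Mlh3, Hfm1, Rnf212, Tex11 and Ccnb1ip1. They were read in ovaries of mouse embryos at embryonic day E15.5. A platform annotation that pairs probe sets with genes named exactly 1 of them for 6 of 45101 probe sets. These covered 5 of the 7 genes, with 2 probe sets for Msh5 and 1 each for Msh4, Mlh3, Tex11 and Ccnb1ip1, while Hfm1 and Rnf212 were not analysed here for expression. The arrays came from 3 samples of a Dmrt1 knockout and 3 samples of wild type. The question of the comparison was which transcripts of the fetal ovary differ when Dmrt1, a DM domain transcription factor of germ cells and testis, is removed. The labels give ovaries as the tissue of both groups, and name neither the strain nor a Cre driver. Nothing in them ties the replicates to separate animals, and p-values therefore cover the spread among these arrays alone, possibly in part a technical one.

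At this age most germ cells of the mouse ovary are in meiotic prophase, when homologous chromosomes pair and repair programmed DNA breaks from one another. A minority of those breaks become crossovers, which hold homologues together until the first meiotic division. The MSH4 and MSH5 proteins form a clamp that stabilises early crossover intermediates, HFM1 is the helicase that acts with them, and TEX11 links them to chromosome pairing. RNF212 and HEI10, the product of Ccnb1ip1, are RING proteins that act on factors at these sites, RNF212 to retain them and HEI10 to clear them, and MLH3 is the endonuclease subunit that cuts intermediates at the sites chosen as crossovers.

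None of the 5 measured genes changed between the groups at a limma adjusted p under 0.05 (0 higher and 0 lower in knockout). Of the 11897 tested genes 3.55% passed, 1.28% higher and 2.27% lower in knockout. The 2 genes that came nearest differed in opposite directions: Ccnb1ip1 was higher and Msh4 lower in knockout than in wild type, and each had an unadjusted p under 0.05, as did 17.4% of all tested genes. Msh5, Mlh3 and Tex11 had overlapping groups and differences of 0.17, 0.085 and 0.024 log2 units, each with a 95% interval that included 0.

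To show the DNA around the starts of these genes, the 250 bases before each annotated start were read from the RefSeq promoter table of build GRCm38.p6, which held 6 of the 7 genes, all but Tex11. The window of Ccnb1ip1, the gene with the largest positive difference, spans chr14:50795729-50795978 on the minus strand and lies outside the annotated extent of the gene. It is printed in lower case throughout because it held no match to any motif searched.
Ccnb1ip1: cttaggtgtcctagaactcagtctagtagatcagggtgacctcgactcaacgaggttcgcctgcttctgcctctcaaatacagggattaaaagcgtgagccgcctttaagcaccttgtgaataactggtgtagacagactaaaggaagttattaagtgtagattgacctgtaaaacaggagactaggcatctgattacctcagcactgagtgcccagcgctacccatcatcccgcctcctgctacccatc
The motifs searched on both strands were ACANTGT (the core of the DMRT binding site), CNCCTCAG (reported for STRA8), CACGTG (the E-box) and GGCGGGAA (an E2F-type site). Among 32851 such windows of all genes, 6.47% held the first, 6.42% the second, 6.02% the third and 1.86% the fourth. Matches stood in the windows of Msh5, Hfm1 and Rnf212, and, with no overlap between matches, the 30 bases around them are given with the matched letters in capitals, 5′ to 3′ on the strand of each gene.
Msh5: cggCTGAGGTGacggaaaaGGCGGGAAagt
Hfm1: cggcctgaggcCTGAGGCGcaccgtgcggt
Rnf212: gtatcggtttgGGCGGGAAggcgcggcctt
The Msh5 stretch lies at chr17:35046678-35046707 on the minus strand and holds CNCCTCAG on the opposite strand (CTGAGGTG as printed), followed by GGCGGGAA. The Hfm1 stretch at chr5:106925938-106925967 (minus strand) holds CNCCTCAG on the opposite strand, and the Rnf212 stretch at chr5:108775097-108775126 (minus strand) holds GGCGGGAA. The windows of Msh4 and Mlh3 held none of the 4 motifs, and ACANTGT and CACGTG were found in no window of these genes. The windows of Msh4, Msh5 and Hfm1 lie inside the annotated extent of their genes, since another annotated start lies further upstream, and those of Mlh3 and Rnf212 lie partly inside. A match describes letters only and shows no binding.

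The array data themselves set some limits on these genes. Arrays of a group had log2 correlations of 0.985 to 0.993 over tested probe sets, and arrays of different groups 0.973 to 0.980. The median intensity over all probe sets was 13.13 to 13.4 on knockout arrays and 14.37 to 14.73 on wild-type arrays. Dmrt1, the targeted gene, read 8.55, 5.97 and 7.46 intensity units in knockout and 8.47, 8.51 and 13.02 in wild type, so its groups overlapped near the floor of the array. Whether that probe set covers the deleted sequence cannot be read from the sources used here, so it checks nothing. Xist, the RNA that coats the inactive X chromosome, averaged log2 1.81 over 3 probe sets on knockout replicate 1. The other knockout arrays had 9.85 and 9.75, and the wild-type arrays 10.68 to 10.91. Xist on knockout replicate 1 was thus near the floor of the array. The labels, which name this sample as ovaries, do not explain it, and its cause was not tested. Values without knockout replicate 1 are therefore given for each crossover gene, and for a partner gene where they differ from the full value by over 1.5 times. As a sign of RNA quality, the 3' Gapdh control exceeded the 5' control by 1.13 to 1.52 log2 units in knockout and by 0.99 to 1.30 in wild type. Actb controls showed a wider gap of this kind on every array. Knockout replicates 1, 2 and 3 had Actb gaps of log2 2.45, 2.75 and 2.68. The gaps for wild-type replicates 1, 2 and 3 were 2.74, 2.42 and 2.28.

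Ccnb1ip1 encodes HEI10, an E3 ligase that marks the sites chosen as crossovers. Its level was 240.67, 176.25 and 173.27 units of intensity on knockout replicates 1, 2 and 3, against 134.03, 150.24 and 125.44 on wild-type replicates 1, 2 and 3. All 3 knockout arrays lay above all 3 wild-type arrays, and knockout replicate 1 stood apart above the rest. The mean log2 value was 7.60 ± 0.27 in knockout and 7.09 ± 0.13 in wild type (SD, n = 3 each). The difference of 0.51 ± 0.18 log2 units (SE), a ratio of 1.43 with a 95% interval of 1.08 to 1.89, did not pass (limma adjusted p = 0.137). Of the tested genes, 9.12% differed by as much or more in either direction. Without knockout replicate 1 the difference was 0.36 (limma adjusted p = 0.322), and both remaining knockout arrays still lay above wild type.

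Of the germ cell markers, some but not all followed an order like that of Ccnb1ip1. Ddx4, the germ cell helicase Vasa, read log2 11.03, 10.61 and 10.35 in knockout and 10.18, 10.33 and 10.19 in wild type. Dazl, an RNA-binding protein of germ cells, read 12.01, 11.68 and 11.15 in knockout and 11.01, 11.32 and 11.08 in wild type. Mael, a germ granule protein, differed by 0.19 ± 0.11 (limma adjusted p = 0.378) and was also highest on knockout replicate 1. Taf4b, a germ cell TFIID subunit, differed by -0.036 ± 0.13 (limma adjusted p = 0.915) and was highest on wild-type replicate 2 (log2 10.89). Ddx4 and Dazl were highest on knockout replicate 1, as Ccnb1ip1 was, and neither passed the test (differences of 0.43 ± 0.16 and 0.48 ± 0.19, limma adjusted p = 0.161 and 0.183). Summed over all 8 germ cell markers on the array, the knockout level ran from 8025 to 12663 intensity units and the wild-type level from 7330 to 8650. Of the 5 markers tested 1, Dppa3, was higher in knockout, against 1.28% of all tested genes. Dppa3 differed by 4.22 ± 0.76 (limma adjusted p = 0.00817), with log2 10.21, 7.62 and 6.26 in knockout. In wild type it read 3.61, 3.60 and 4.23, close to log2 4, the level needed on 3 arrays for a test. Dppa3 thus entered the test through its knockout arrays, and nothing is read from its call. Kit, Tdrd1 and Dnd1 did not reach that level on 3 arrays. In whole ovaries, a change in the number of germ cells and a change in RNA per germ cell cannot be told apart, and the part of either in the Ccnb1ip1 values was not tested.

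**Figure D1:**
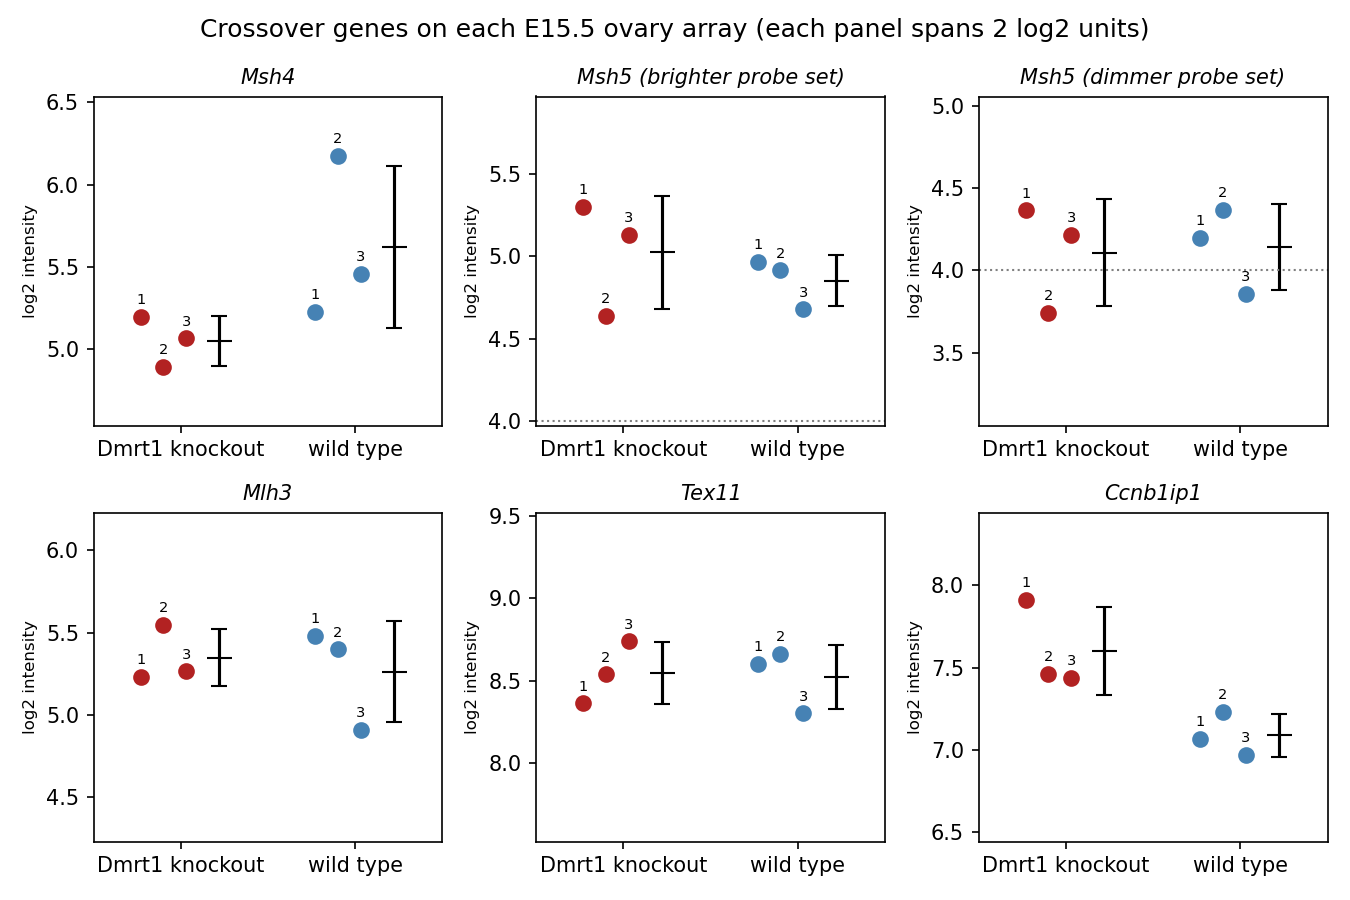
Log2 intensity of the 6 probe sets of the measured crossover genes on each array, knockout (red) left of wild type (blue), with the replicate number over each point and the mean ± SD in black. The dotted line marks log2 4, the level needed for a test, and only Ccnb1ip1 and Msh4 have groups that do not overlap.

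Msh4 encodes a subunit of the MutS-gamma clamp and is made almost only in germ cells in meiosis. Levels of 36.7, 29.8 and 33.5 intensity units were read on knockout replicates 1 to 3, against 37.5, 72.3 and 44.0 on wild-type replicates 1 to 3. All knockout arrays lay below all wild-type arrays, but knockout replicate 1 and wild-type replicate 1 were nearly equal, and wild-type replicate 2 stood well above every other array. Mean log2 values were 5.05 ± 0.15 in knockout and 5.62 ± 0.49 in wild type (SD, n = 3 each), a difference of -0.57 ± 0.25 (SE) that did not pass (limma adjusted p = 0.227). The ratio was 0.674 with a 95% interval of 0.460 to 0.988. Without wild-type replicate 2 the difference was -0.29 (limma adjusted p = 0.602), and without knockout replicate 1 it was -0.64 (limma adjusted p = 0.262). Of all tested genes, 6.97% lay as far from 0. The Msh4 probe set was dim, with a mean level at percentile 20.0 of the tested probe sets. With quantile normalization its difference was -0.45 (limma adjusted p = 0.348).

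Msh5 encodes the partner that MSH4 binds to form the clamp. Its brighter probe set read 39.5, 24.9 and 35.1 intensity units in knockout, against 31.2, 30.2 and 25.6 in wild type. Knockout replicates 1 and 3 lay above all wild-type arrays and knockout replicate 2 lay below them, so the groups overlapped. The difference was 0.17 ± 0.21 on the log2 scale (SE, 3 arrays a group, limma adjusted p = 0.700), with a 95% interval of -0.30 to 0.64. It was 0.033 without knockout replicate 1 and 0.36 without knockout replicate 2.

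The dimmer Msh5 probe set read 20.6, 13.4 and 18.6 intensity units in knockout and 18.4, 20.7 and 14.5 in wild type. Only 4 of the 6 arrays reached 16 intensity units, the level needed for a test, so its values lie close to the floor. Its difference was -0.034 ± 0.22 (limma adjusted p = 0.954), and -0.16 without knockout replicate 1 (limma adjusted p = 0.765). The 2 probe sets of Msh5 thus put its difference on either side of 0, each within its error. Averaged, they gave 0.069 (limma adjusted p = 0.890). Msh4 and Msh5, whose products work as a pair, had differences of opposite sign, and the gap between them was not tested.

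Tex11, an X-linked gene whose product joins the crossover machinery during pairing, was read well above the level needed for a test on every array. It had 329.33, 371.92 and 426.94 intensity units in knockout, against 388.77, 405.65 and 315.55 in wild type. The lowest and second lowest arrays came from different groups, wild-type replicate 3 and knockout replicate 1, and the groups overlapped over most of their range. The mean log2 value was 8.55 ± 0.19 in knockout and 8.52 ± 0.19 in wild type (SD, n = 3 each). The difference of 0.024 ± 0.16 (SE, limma adjusted p = 0.956) had a 95% interval of -0.34 to 0.39, which as a ratio runs from 0.791 to 1.31. Without knockout replicate 1, the lowest knockout array for this gene, the difference was 0.12 (limma adjusted p = 0.777). The 95% interval gives the Tex11 differences compatible with these arrays. The smallest difference that 3 arrays a group could detect was not computed.

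Mlh3, the late-acting nuclease subunit, read 37.6, 46.7 and 38.5 intensity units in knockout, against 44.7, 42.2 and 30.1 in wild type. Wild-type replicate 3 was lowest and knockout replicate 2 highest, with the other arrays of both groups mixed between them. Its difference was 0.085 ± 0.21 on the log2 scale (SE, 3 arrays a group, limma adjusted p = 0.862), with a 95% interval of -0.37 to 0.54. Without knockout replicate 1 the difference was 0.14 (limma adjusted p = 0.794), without knockout replicate 2 it was -0.014, and without wild-type replicate 3 it was -0.092.

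**Figure D2:**
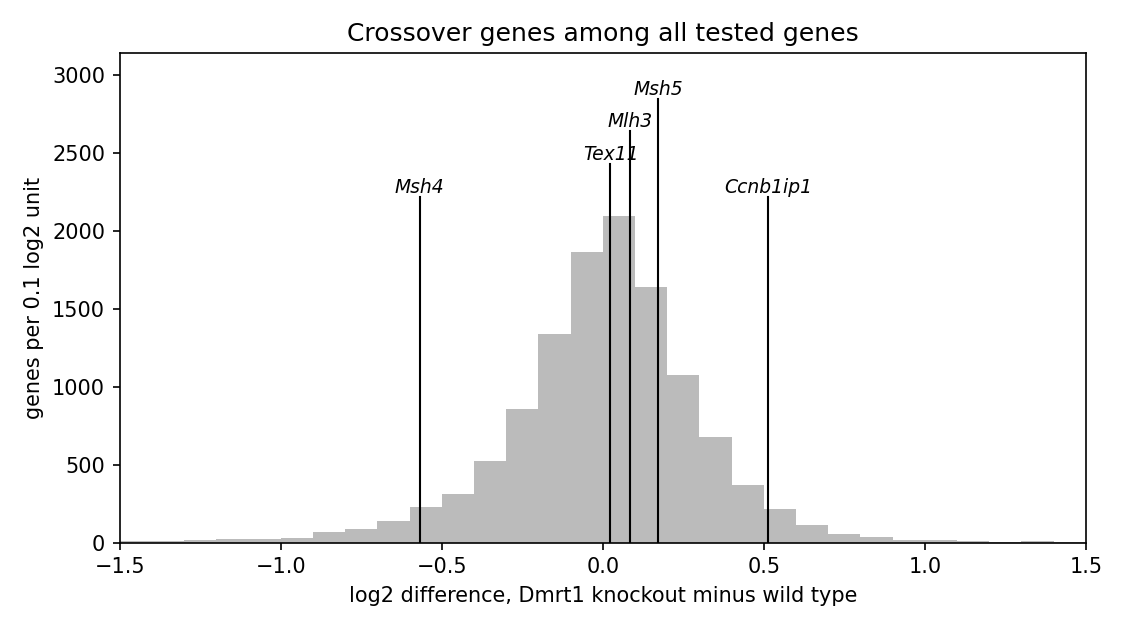
Log2 difference (knockout minus wild type) of 11897 tested genes in bins of 0.1, drawn from -1.5 to 1.5, with the 5 crossover genes as black lines. Tex11, Mlh3 and Msh5 fall in the bulk of the distribution, and Msh4 (-0.57) and Ccnb1ip1 (0.51) in its lower and upper shoulders.

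Over the 5 genes, 4 differences were positive and 1 was negative, with a median of 0.085. All tested genes had a median of 0.019, and 53.4% of them were positive. The groups did not overlap for 2 of the 5 crossover genes, 1 in each direction, against 23.7% of all tested genes (12.3% higher and 11.4% lower in knockout). That is a small count over few genes, and nothing is read from it.

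The 5 genes did not share 1 profile over the arrays. Ccnb1ip1 and Msh5 had the highest correlation of log2 values over the 6 arrays (Pearson r = 0.65), followed by Mlh3 and Tex11 (r = 0.62), while Msh4 and Ccnb1ip1 had the lowest (r = -0.35). The arrays behind these values also differ in genotype. Within the knockout group, replicate 1 was highest for Ccnb1ip1, Msh4 and Msh5 but lowest for Mlh3 and Tex11. Within wild type, replicate 3 was lowest for Ccnb1ip1, Msh5, Mlh3 and Tex11, and replicate 1 was lowest for Msh4.

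**Figure D3:**
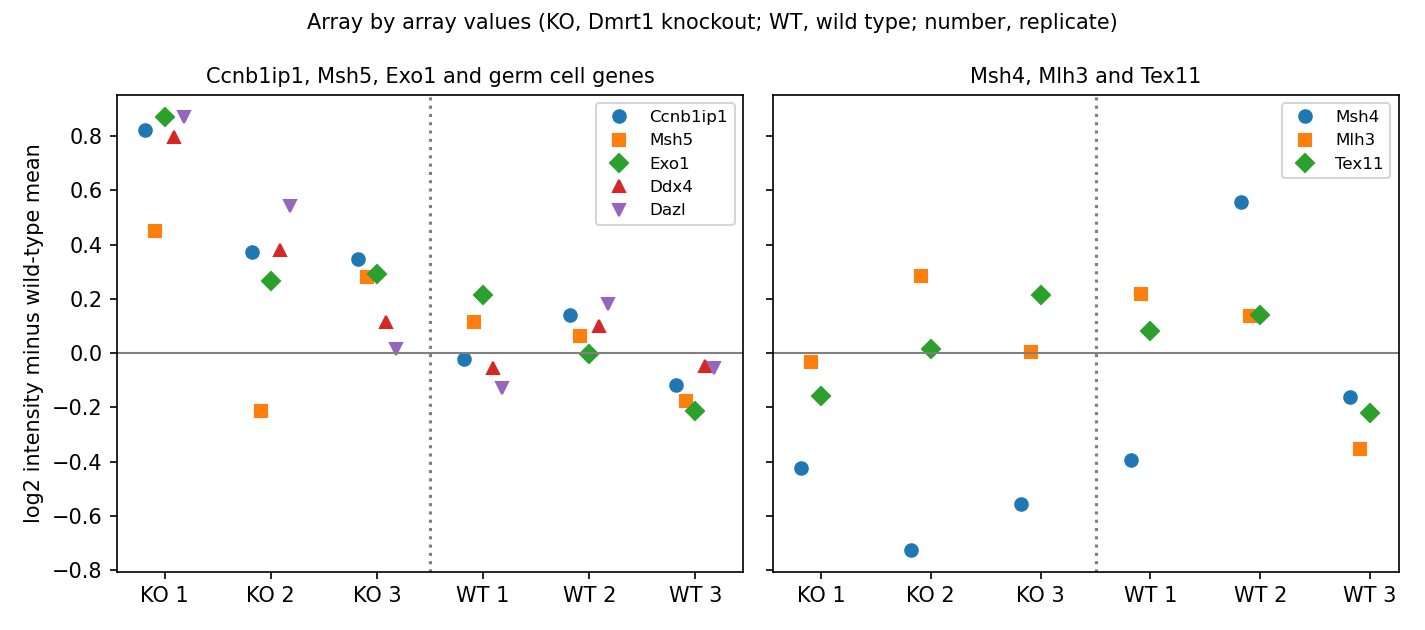
Log2 intensity on each array minus the wild-type mean of the gene, for Ccnb1ip1, Msh5 (brighter probe set), Exo1, Ddx4 and Dazl on the left and Msh4, Mlh3 and Tex11 on the right, with knockout (KO) left of wild type (WT). Knockout replicate 1 is the highest array for all 5 genes on the left, and wild-type replicate 2 is the highest for Msh4. Of the 8 germ cell markers only Ddx4 and Dazl are drawn. Of the others tested, Mael and Dppa3 were highest on knockout replicate 1 and Taf4b on wild-type replicate 2.

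For each crossover gene, the genes with the most similar values over the 6 arrays were looked up among all tested genes. For Ccnb1ip1 these were Parl, a mitochondrial rhomboid protease (r = 0.9991), and Rpl39l, a ribosomal protein paralogue (r = 0.9954). Msh4 was most like Pias2, a SUMO ligase (r = 0.986), and Trim44 (r = 0.981). For Msh5 they were Cox5a, a subunit of cytochrome oxidase (r = 0.990), and Mrpl20, a mitochondrial ribosomal protein (r = 0.988). Mlh3 was nearest to Bmp6, a secreted BMP ligand (r = 0.979), and Dock9 (r = 0.927), and Tex11 to 9430091E24Rik (r = 0.997) and Kdm4d, a histone demethylase (r = 0.996). None of these 10 genes passed the test between groups, with limma adjusted p from 0.0872 for Rpl39l to 0.989 for 9430091E24Rik. With 6 arrays and 11897 genes searched, such values describe these arrays alone.

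Other factors of the pathway were read from lists chosen for their roles. Of 10 partners in crossover formation, 4 were tested and 0 passed (1 with an unadjusted limma p under 0.05), while the others were not analysed here. Exo1, an exonuclease that works with MLH3, read log2 7.84, 7.24 and 7.27 in knockout, against 7.19, 6.97 and 6.76 in wild type. Every knockout array lay above every wild-type array, with knockout replicate 1 the highest. Its difference was 0.48 ± 0.21 (SE, limma adjusted p = 0.229), and 0.28 without knockout replicate 1 (limma adjusted p = 0.493).

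Cdk2, the kinase that sits at crossover sites, was the most variable of the 4 tested partners in crossover formation. It read log2 6.79, 5.77 and 4.90 in knockout and 5.47, 5.95 and 6.0 in wild type. Its knockout arrays enclosed all the wild-type values, and the difference was 0.015 ± 0.39 (limma adjusted p = 0.990). Leaving out knockout replicate 1 gave -0.47 (limma adjusted p = 0.436) and leaving out knockout replicate 3 gave 0.47 (limma adjusted p = 0.433). Cntd1, a cyclin-like protein of crossover designation, differed by 0.0041 ± 0.084 (0.987) through a bright probe set of a kind that can match several transcripts (0.015 without knockout replicate 1), and by 0.34 ± 0.15 (0.232) through its other probe set. Mcm8, a helicase of meiotic repair, differed by -0.082 ± 0.19 (0.853), and by -0.15 without knockout replicate 1 (0.753).

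Enzymes that cut or unwind joint molecules outside the main crossover route numbered 12, of which 10 were tested and 0 passed (1 with an unadjusted limma p under 0.05), while Slx1b and Rmi2 lay below the level needed for a test. Their median difference was 0.20, with 7 positive and 3 negative. Top3a, the topoisomerase that dissolves joint molecules together with BLM, read log2 6.48, 6.44 and 6.66 in knockout and 6.04, 6.09 and 6.05 in wild type. Its groups lay apart, and its difference was 0.47 ± 0.16 (limma adjusted p = 0.130). The nuclease Mus81 differed by 0.45 ± 0.22 (0.290), the D-loop helicase Rtel1 by 0.26 ± 0.14 (0.317), and Fancm, a helicase of the Fanconi anaemia pathway, by -0.40 ± 0.18 (0.253). Mus81 differed by 0.26 without knockout replicate 3 (limma adjusted p = 0.531) and Rtel1 by 0.12 without knockout replicate 2 (0.546). The dimmer Rtel1 probe set gave 0.21 ± 0.17 (limma adjusted p = 0.536).

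The mismatch repair relatives of these proteins gave 4 tested genes of 5 and 0 calls (0 with an unadjusted limma p under 0.05). Msh3, a mismatch recognition protein, differed by 0.31 ± 0.14 (limma adjusted p = 0.256) and Msh6, another of that kind, by -0.067 ± 0.12 (0.816), or by -0.13 without knockout replicate 1 (0.669). Pms2 and Pms1, MutL relatives of MLH3, differed by 0.35 ± 0.17 (0.279) and 0.31 ± 0.18 (0.385). The dimmer Pms2 probe set gave 0.047 ± 0.18 (limma adjusted p = 0.918).

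Genes that act earlier in prophase, in breaks, axes and synapsis, gave 0 calls among 11 tested of 12 (3 with an unadjusted limma p under 0.05), with a median of -0.083. Rec8, the meiotic cohesin, had the largest difference, at 1.64 ± 0.44 (SE, limma adjusted p = 0.0538). It read log2 10.75, 9.09 and 9.37 in knockout and 8.94, 7.64 and 7.70 in wild type, groups that did not overlap. It passed without knockout replicate 2 (1.97, limma adjusted p = 0.0358) or wild-type replicate 1 (2.07, 0.0311). It did not pass without knockout replicate 1 (1.14, limma adjusted p = 0.116), knockout replicate 3 (1.83, 0.0735), wild-type replicate 2 (1.42, 0.169) or wild-type replicate 3 (1.45, 0.162). Sycp2, an axis protein, differed by -0.41 ± 0.12 (limma adjusted p = 0.0811), and passed without wild-type replicate 3 (-0.53, limma adjusted p = 0.0333). It did not pass without any other single array, with -0.43 without knockout replicate 1 (limma adjusted p = 0.138) and -0.31 without wild-type replicate 2 (0.309). Dmc1, the strand exchange recombinase whose product makes the intermediates on which MSH4 acts, differed by -0.65 ± 0.25 (limma adjusted p = 0.171). Like Msh4, it was highest on wild-type replicate 2 (log2 10.31), and its difference was -0.38 without that array (limma adjusted p = 0.478). The dimmer Dmc1 probe set gave -0.44 ± 0.37 (limma adjusted p = 0.552). Syce1, a synaptonemal complex protein, differed by 0.45 ± 0.21 (limma adjusted p = 0.256), and by 0.21 without knockout replicate 1 (0.564).

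**Figure D4:**
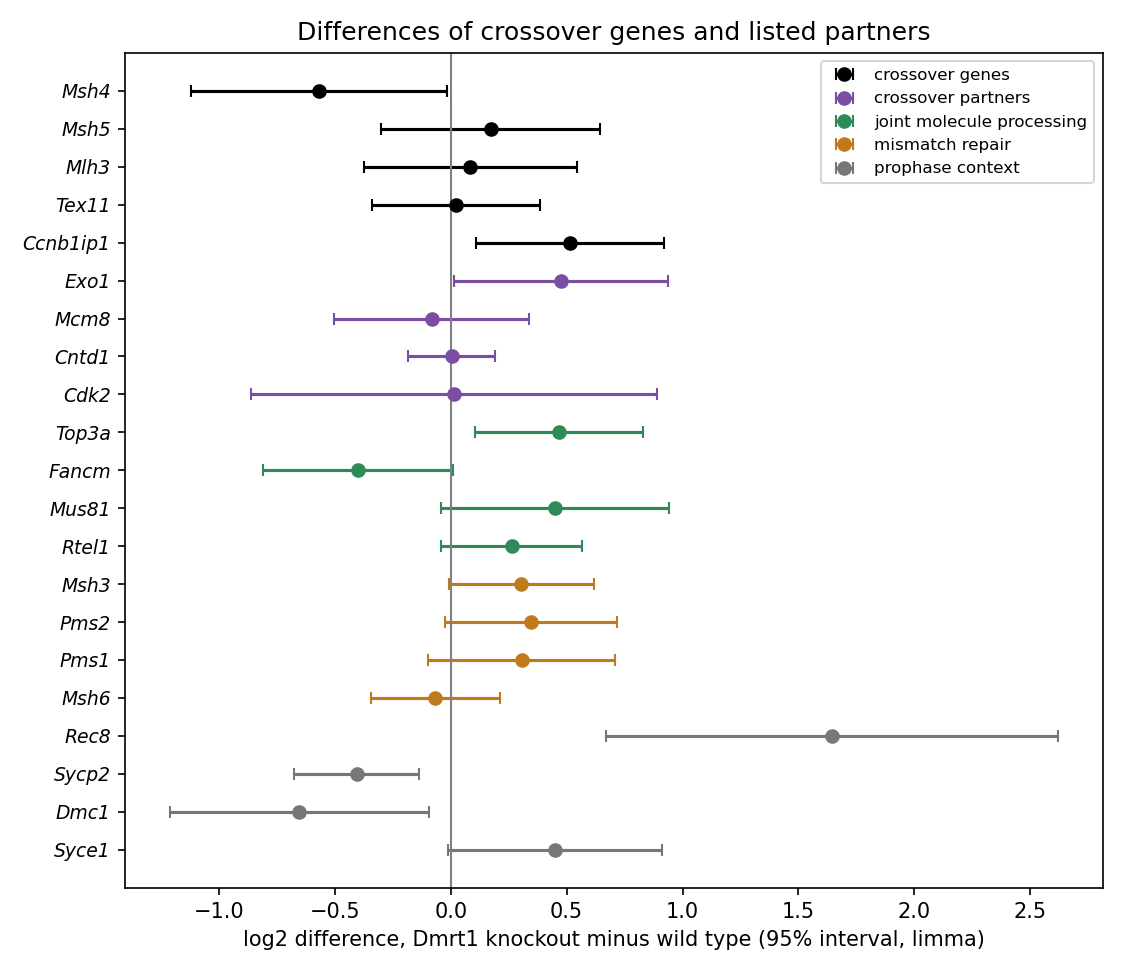
Log2 difference (knockout minus wild type) with its 95% limma interval, for the 5 crossover genes and the 4 genes with the smallest p of each list, coloured by list. No gene shown had an adjusted p under 0.05, and the interval is widest for Rec8 and Cdk2.

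Markers of some other cell types differed between the same samples. For the counts below, 2.27% of all tested genes passed as lower in knockout. In stroma 0 of 6 tested genes passed, all 6 were negative, and summed intensities ran from 23433 to 24134 in knockout and from 26796 to 28844 in wild type. Of the 6 macrophage genes 2 were lower in knockout, with sums of 2136 to 3548 in knockout against 3464 to 4198 in wild type. So were 2 of 3 tested endothelial genes, with sums of 717 to 836 in knockout against 1025 to 1174 in wild type. In the erythroid list 1 of 2 tested genes was lower, with sums of 317 to 482 in knockout against 478 to 1286 in wild type. No pregranulosa (7 tested), mesonephros (3) or Sertoli (1) gene passed, and the Sertoli hormone Amh lay near the floor in both groups. Of the pregranulosa genes 5 were positive and 2 negative, with sums of 9152 to 9802 in knockout against 8572 to 9007 in wild type. All 3 mesonephros genes were positive, with sums of 2570 to 3786 in knockout against 2696 to 3119 in wild type. The part of these differences in the crossover genes' values was not tested.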

How the data were processed

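Each deposited value is a linear intensity of a probe set, between 1.45 and 24159, and was made by the authors with GCRMA, per the submitters' processing notes; its version and settings are not given in the sources used here. Affymetrix arrays and biotin label are given per the labels. Dim values are drawn towards a floor by GCRMA, near which ratios are widened. Arrays give no counts, so their number limits the precision.

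All intensities were put on the log2 scale. After removal of 64 controls from 45101 probe sets, 22040 with log2 of at least 4 (intensity 16) on at least 3 of 6 arrays remained for testing. Gene names came from the platform annotation, with 34741 of 34945 single-gene probe sets found in a RefSeq table (GRCm38.p6) and 0 symbols changed. The comparison of groups used limma 3.58.1 under R 4.3.3 (lmFit, eBayes with trend, genotype only, 2-sided), with Benjamini-Hochberg adjustment over all tested probe sets and a threshold of 0.05. A gene was counted through its brightest probe set (11897 genes). Partner genes are named by the 4 smallest p of each list, and similar genes by the 2 highest correlations. The fit was tested on simulated data. 0 pairs of arrays held identical values, and 16 alternatives were run. Genes and lists were chosen with earlier results of these data known.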

Additional observations from a re-analysis of the deposited data

How the results depend on the processing

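Over 91 differences of the crossover genes under alternative settings, 0 passed the threshold and 9 changed sign, all of them from differences close to 0. Ccnb1ip1 stayed positive (0.36 to 0.60, limma adjusted p from 0.0750 to 0.365) and Msh4 negative (-0.76 to -0.29, limma adjusted p from 0.165 to 0.602) under every alternative run; the filter at log2 6 removed Msh4, Msh5 and Mlh3. With quantile normalization Msh4 gave -0.45 (limma adjusted p = 0.348), the brighter Msh5 probe set 0.30 (0.444) and Mlh3 0.21 (0.612). Ccnb1ip1 gave 0.54 (limma adjusted p = 0.115) and Tex11 0.026 (0.950) under that setting. The dimmer Msh5 probe set gave 0.038 with array weights and 0.10 with quantile normalization. Tex11 gave -0.0095 with array weights, and Cntd1 gave -0.024 with quantile normalization. Leaving out each array in turn gave ranges of -0.18 to 0.15 for that Msh5 probe set, -0.092 to 0.19 for Mlh3, -0.087 to 0.12 for Tex11, -0.056 to 0.050 for Cntd1, -0.47 to 0.47 for Cdk2, -0.20 to 0.11 for Mcm8 and -0.13 to 0.034 for Msh6. In the earlier prophase list 1 gene passed, against 0, with no filter, array weights, the replicate block and without probe sets ending in _x_at or _s_at, and 0 to 1 on leaving out an array. Rec8 passed in 6 of 16 alternatives.

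Over all probe sets, 321 were higher and 1134 lower in knockout. These became 1325 and 1957 with no filter, 140 and 504 with the filter at log2 6, and 207 higher with the replicate block. Leaving out an array gave 159 to 422 higher and 645 to 1119 lower; the count higher was 205 without knockout replicate 1, and the counts higher and lower were 165 and 714 without wild-type replicate 1, 163 and 645 without replicate 2, and 159 and 751 without replicate 3. Some of these settings also changed the number of arrays or of probe sets tested, and the causes of the changed counts were not tested.

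Replicate numbers gave no sign of pairing: deviations of same-numbered arrays correlated at -0.17, -0.25 and -0.17, and no array correlated best with its own number. Positive correlations joined knockout replicate 1 to wild-type replicate 2 (0.33), 2 to 3 (0.34) and 3 to 1 (0.24). Whether these arrays share a source was not tested. With the replicate block the limma adjusted p was 0.249 for Ccnb1ip1 and 0.325 for Msh4. Arrays lack detection calls here, so values near log2 4, as for Msh5, have little resolution.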
